A study of Sparus aurata with 9 samples.

Results

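The 50 sequences described here are liver transcripts of gilthead sea bream (Sparus aurata) whose signal stood in one order across a series of gold nanoparticle (AuNP) exposures. For each of them, all 3 pools at 0.5 µg/L lay below all 3 control pools, and all 3 pools at 50 µg/L lay above all 3 control pools. They were chosen by that order alone, so the order itself, the size of the differences and every comparison between the groups describe how they were chosen and are no test of it. The order was met by 50 of 5191 sequences with a usable signal (0.963%), out of 15156 sequences on the array. The level used throughout is the log2 of the scanner software's processed spot signal minus the 75th percentile of its array, averaged over the probes of a sequence. A level of 0 equals that percentile, and a difference of 1 is a doubling. A usable signal means a probe that the scanner software called well above background in each of the 3 pools of some group.

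All fish were juveniles of about 50 g, acclimatised in artificial seawater and then exposed for 24 h. The control group received no nanoparticles, the low group 0.5 µg/L, a concentration predicted for the environment, and the high group 50 µg/L, a spiking concentration. Liver RNA was extracted fish by fish and combined into 3 pools of 3 fish per group, and each pool was hybridised to 1 one-colour (Cy3) Agilent array, which gives 9 arrays and n = 3 pools per group. Fish of a condition shared duplicated tanks, and the labels do not say which pool came from which tank. A tank effect and the treatment therefore cannot be told apart, and a pool averages out differences between its 3 fish. In pooled whole liver, fewer cells of a type and less RNA per cell cannot be told apart either.

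The liver of a fish is its main organ of intermediary metabolism. It makes most plasma proteins, including the yolk precursor and carriers of lipid and iron, clears foreign compounds by oxidation and conjugation, and binds excess metal with metallothionein. Gold nanoparticles are small particles of a metal that dissolves little, and uptake through gill and gut can carry such particles to the liver, where phagocytic and parenchymal cells take them up. Responses to toxicants are often graded with dose, and a response that runs in opposite directions at a low and a high dose is called non-monotonic. The 50 sequences hold that second kind of order, with the unexposed level in the middle.

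The array was built from sea bream expressed sequence tags, of which some had been assembled into contigs and others stood as single clones. Of the members, 29 were contigs (58.0%) and 21 were clones, against 55.1% contigs among all tested sequences. No gene is assigned to any of them in the files, and 0 of their names matched the RefSeq gene table used. No member can therefore be given a function, no list of hepatocyte, immune or stress genes could be counted, and the tissue label could not be set against marker genes. Several members may come from one transcript, which was not tested. In what follows, identifiers are given for 4 members only, the others are called by their rank, and rank 1 is the member with the largest difference between the high and the low group.

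The 50 members were lower at 0.5 µg/L than in controls by a median of -0.46 (log2; range -1.53 to -0.12), where all tested sequences had a median of -0.02. At 50 µg/L they were above the controls by a median of 0.53 (0.21 to 1.30), where all tested sequences had a median of -0.11. Between the 2 exposed groups the difference had a median of 0.96 (0.46 to 2.80), a fold of 1.94 (1.38 to 6.94), against a median of -0.11 for all tested sequences. The high group exceeded the low one by more than 1.5-fold in 45 members, by more than 2-fold in 24 and by more than 3-fold in 9. The numbers of all tested sequences past the same folds were 384, 117 and 35. Against the controls alone, 4 members were lower by more than 2-fold at the low concentration and 4 were higher by more than 2-fold at the high one.

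**Figure D1:**
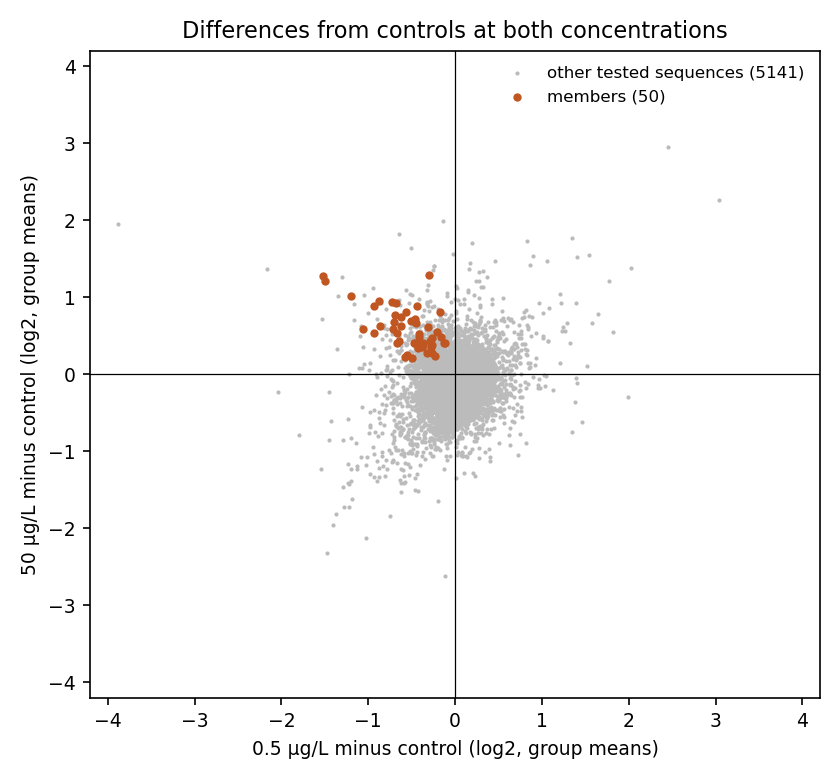
Difference from the control mean at 0.5 µg/L (horizontal axis) and at 50 µg/L (vertical axis), on the log2 scale, for the 50 members (orange) and the 5141 other tested sequences (grey). The members fill the upper left, from -0.12 to -1.53 on the horizontal and from 0.21 to 1.30 on the vertical axis, and other sequences lie there too, with means of the same signs but pools that overlap.

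Each group difference also had its own share of sequences. All 3 low pools lay below all 3 controls in 350 tested sequences (6.74%), and all 3 high pools lay above all 3 controls in 360 (6.94%). The members are the 50 sequences that belong to both sets, 14.3% of the first and 13.9% of the second. Both sets use the same control pools, so their overlap is given as the count that the rule fixes. The opposite order, with the high group lowest and the low group highest, was met by 26 sequences. A steady decline with dose was met by 10 sequences and a steady increase by 2. Both exposed groups above the controls with the low group highest was met by 2, and both below the controls with the low group lowest by 1.

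The levels of the members relative to their own control mean are drawn for all 9 arrays. Taken as the median over the members, the control pools 1, 2 and 3 lay at 0.09, -0.06 and -0.01. The low pools lay at -0.48, -0.39 and -0.43, and the high pools at 0.56, 0.34 and 0.63. The low pools thus lay close together, and high pool 2 was nearest to the controls among the exposed arrays. High pool 2 was the lowest of its group in 41 members (82.0%), and it was so in 51.8% of all tested sequences. High pool 3 was the highest of its group in 27 members. Control pool 1 was the highest control in 32 members (64.0%), against 33.3% of all tested sequences.

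**Figure D2:**
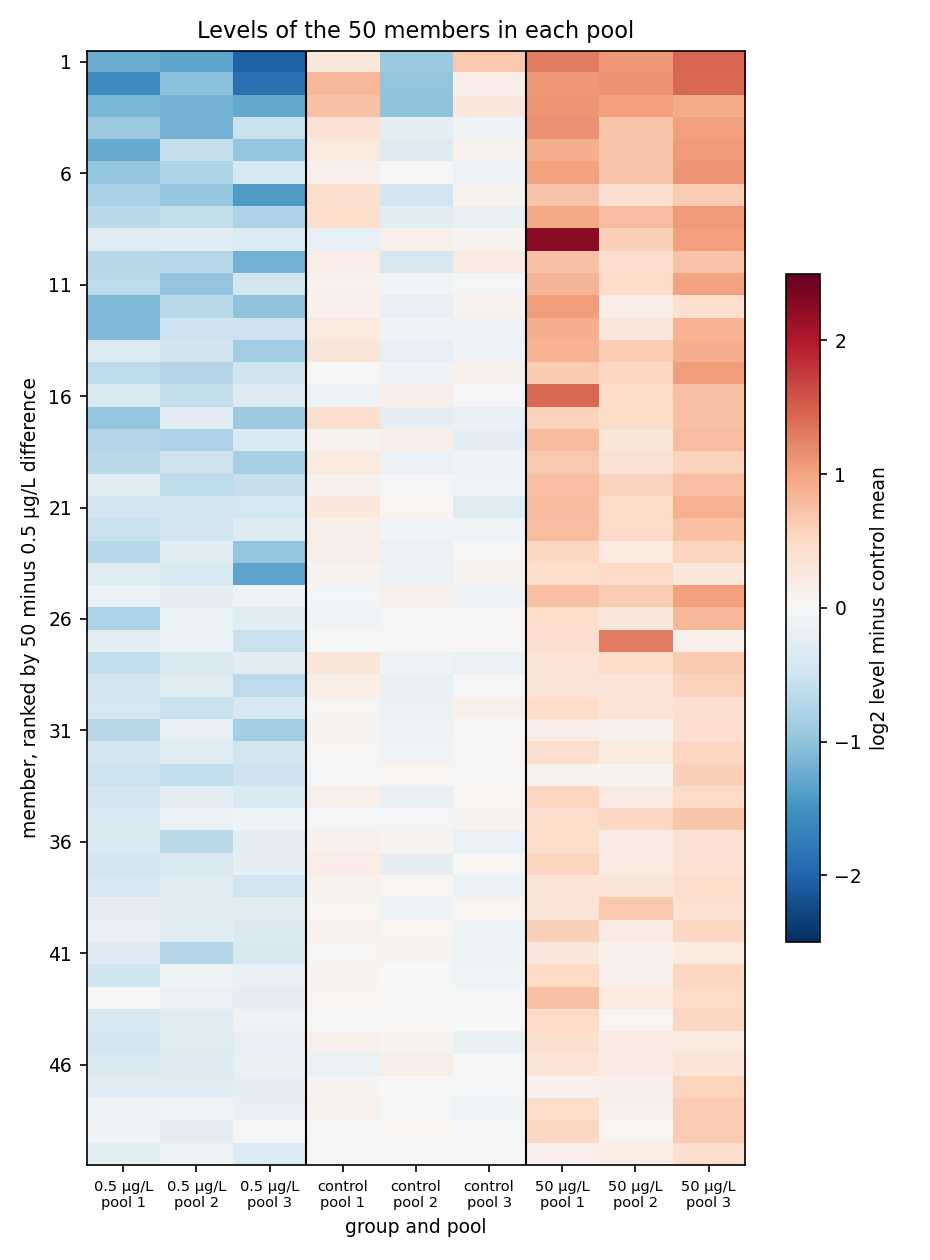
Level of each of the 50 members in each of the 9 pools, as log2 difference from the member's control mean (blue lower, red higher), with members in order of their difference between 50 and 0.5 µg/L from rank 1 at the top. The low pools are blue throughout and the high pools red throughout, as the rule demands, while the widest control spread stands in the first 3 ranks.

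Each of the 3 slides held 1 array of each group and coincided with a pool number, and the rule fixes the sign of the differences on every slide. The median of the members, low minus control, was -0.63 on slide 1, -0.32 on slide 2 and -0.40 on slide 3. The median high minus control was 0.46, 0.46 and 0.63. The median high minus low was 1.02, 0.86 and 1.13. On every slide the control, low and high arrays occupied positions 1, 2 and 3, so that array position and exposure cannot be told apart.

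The 4 members named here have more than 1 kept probe, and each of these probes shows the order by itself, which held for 5 members in all. They were chosen for this, so it is no test of the order. The clone cDN10P0005N01.F.ab1 is rank 1. Its level was 4.60, 3.41 and 5.01 in control pools 1 to 3, 3.11, 3.02 and 2.32 in the low pools, and 5.61, 5.43 and 5.79 in the high pools. The controls spread over a wide range, with pool 2 near the low group and pools 1 and 3 nearer the high group, and the groups do not overlap. The means were 4.34 ± 0.83 for the control, 2.81 ± 0.43 for the low and 5.61 ± 0.18 for the high group (SD, n = 3 pools). The high group exceeded the low one by 2.80 (SE 0.38), a 6.94-fold difference. Its 3 probes gave 2.77, 2.78 and 2.84. On slide 2 the low pool was below the control by only 0.39, and on slide 3 by 2.69, given as -0.39 and -2.69 for low minus control.

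The contig Seabream_2006-01-03-CL1850Contig1, rank 4, was dimmer. It stood at -0.42, -1.04 and -0.89 in controls, at -1.69, -1.96 and -1.34 in the low pools, and at 0.35, -0.09 and 0.25 in the high pools. The 3 groups are separate, and each spans a similar range. The means were -0.78 ± 0.32, -1.66 ± 0.31 and 0.17 ± 0.23 (SD, n = 3 pools), and high minus low was 1.83 (SE 0.23; 3.57-fold). Its brighter kept probe was called well above background on 1 of 3 low arrays and on all 3 control and all 3 high arrays, with a high minus low of 1.35. The dimmer one passed on no low array, on 1 control array and on all 3 high arrays, so the filter kept it through the high group alone. Its high minus low was 2.32, and the level averages both kept probes. Another probe for this contig failed the filter, and its low minus control of 0.88 and high minus low of -0.60 run against the rule.

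The clone cDN03P0005J17.F.ab1, rank 5, had levels of -0.07, -0.65 and -0.24 in controls, of -1.57, -0.89 and -1.31 in the low pools, and of 0.59, 0.38 and 0.75 in the high pools. Low pool 2 and control pool 2 are the closest pair across the groups. The means were -0.32 ± 0.30, -1.26 ± 0.34 and 0.57 ± 0.19 (SD, n = 3 pools), and high minus low was 1.83 (SE 0.23; 3.55-fold). Of its kept probes, one passed on 2 low arrays and on all control and high arrays, and the other on no low array, on 1 control array and on all 3 high arrays. The filter kept that other probe through the high group alone. Its high minus low was 2.11, against 1.55 for the first, and the level averages both. A remaining probe of this clone failed the filter, and it differed the same way as the kept probes, by -1.10 at the low and 1.07 at the high concentration.

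The contig Seabream_2006-01-03-CL422Contig1, rank 32, shows the order at a smaller scale and with tight pools. It stood at 3.12, 3.03 and 3.13 in controls, at 2.64, 2.79 and 2.62 in the low pools, and at 3.50, 3.32 and 3.63 in the high pools. The control pools lie within 0.1 of each other, and both exposed groups stand clear of them. The means were 3.09 ± 0.05, 2.69 ± 0.09 and 3.49 ± 0.16 (SD, n = 3 pools). High minus low was 0.80 (SE 0.16; 1.74-fold), and its 3 probes gave 0.79, 0.77 and 0.84.

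**Figure D3:**
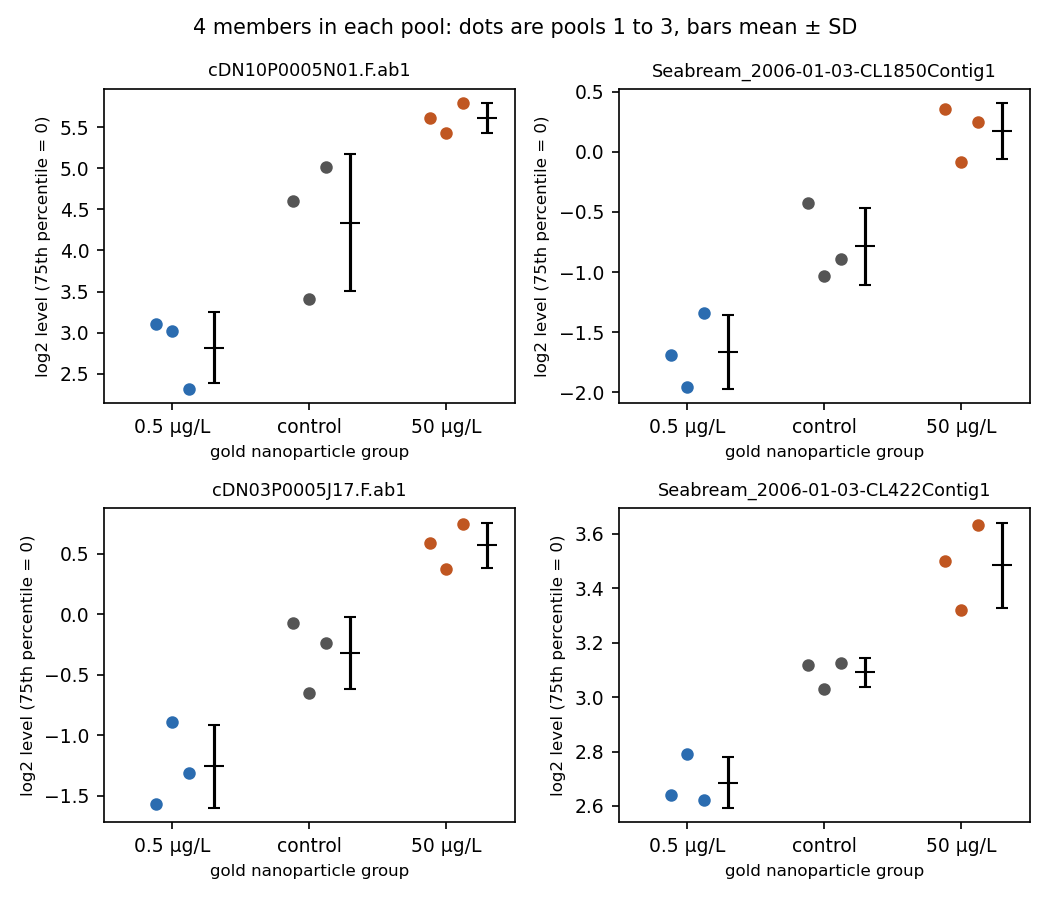
Level (log2, 75th percentile of the array set to 0) of the 4 named members in each pool, with the group mean and SD beside the dots and with a vertical axis of its own in each panel. The 3 groups are separate in every panel, and the control spread runs from an SD of 0.05 in the contig CL422 to 0.83 in the clone of rank 1.

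Ranks 2 and 3 had controls as scattered as rank 1, with SDs of 0.92 and 0.90, while those of ranks 4 to 10 had SDs between 0.12 and 0.44. The member of rank 2 stood at 0.26, -1.56 and -0.42 in controls, at -2.15, -1.63 and -2.43 in the low pools, and at 0.50, 0.54 and 0.86 in the high pools. Its control pool 2 lay just above low pool 2, and control pool 1 just below the high group. The member of rank 3 stood at -0.45, -2.19 and -0.93 in controls, at -2.33, -2.38 and -2.48 in the low pools, and at -0.08, -0.16 and -0.27 in the high pools. Here too control pool 2 came near the low group, while the values of both exposed groups were tight. The kept probes of ranks 2 and 3 passed on no low array, on at most 2 control arrays and on all 3 high arrays. The filter thus kept both members through the high group alone, and their low values are readings near background. The member of rank 7 stood at 4.25, 3.38 and 3.92 in controls, at 3.03, 2.88 and 2.44 in the low pools, and at 4.57, 4.25 and 4.47 in the high pools. Its control pool 1 and high pool 2 are equal at this precision and met the rule by 0.0015.

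A second kind of member kept its controls together. The member of rank 11 stood at 1.75, 1.58 and 1.63 in controls, at 1.01, 0.67 and 1.19 in the low pools, and at 2.51, 2.12 and 2.66 in the high pools. Rank 15 stood at 2.29, 2.17 and 2.39 in controls, at 1.63, 1.56 and 1.78 in the low pools, and at 2.93, 2.82 and 3.33 in the high pools. For these members the distance between neighbouring groups was larger than the range of the controls. At the small end, rank 50 stood at 1.73, 1.76 and 1.73 in controls, at 1.52, 1.61 and 1.40 in the low pools, and at 1.86, 1.91 and 2.15 in the high pools.

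The controls were close to the middle of the range in most members. The part of the distance between the exposed groups that lay below the control mean had a median of 49.2% and ran from 17.8% to 71.7%. It was between 40% and 60% in 33 members, below 40% in 11 and above 60% in 6. The difference at the low concentration was the larger one in 23 members and that at the high concentration in 27. A strongly one-sided case is rank 9, with 0.61, 0.94 and 0.89 in controls, 0.50, 0.55 and 0.47 in the low pools, and 3.06, 1.41 and 1.83 in the high pools. The low pools of that member lay close under the controls, and high pool 1 stood far above the other high pools.

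The spread between pools within a group was smaller in the members than in all tested sequences, which the rule favours because it asks for groups that do not overlap. The median SD of the members was 0.15 for the control, 0.15 for the low and 0.18 for the high group. Over all tested sequences it was 0.22, 0.24 and 0.29.

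In a limma fit over all 9 arrays and all 5191 sequences, at a Benjamini-Hochberg adjusted p under 0.05, 25 of the 50 members were called higher at 50 than at 0.5 µg/L. In all, 48 sequences were called higher in that comparison (0.925%), and 8 were called lower. The adjusted p of the members in limma ran from 0.0180 to 0.165. It was 0.0180 for the 3 named members of ranks 1, 4 and 5 and 0.0499 for Seabream_2006-01-03-CL422Contig1. The unadjusted p in limma was under 0.05 in all 50 members and, in either direction, in 1061 of the 5191 sequences. Of the 9 members past 3-fold, 8 were called. Among these are ranks 2, 3 and 8, which passed the filter through the high group alone. The rule used this contrast, so nothing is read from the number of members called.

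Against the controls limma called no sequence in either direction. For the low group, 0 of 5191 sequences were called lower (0%), and 173 (3.33%) were lower at an unadjusted p under 0.05, among them 30 members. The lowest adjusted p of a member in limma was 0.692. For the high group, 0 sequences were called higher (0%), and 232 (4.47%) were higher at an unadjusted p under 0.05, among them 35 members. The lowest adjusted p of a member in limma was 0.204. With 3 pools per group, the sides of the order that face the controls thus rest on levels that do not overlap, and no member passed the test on either side.

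The slides are a batch that the file headers record. With the slide as a fixed block, limma called 10 members between the exposed groups, all of them among the 25, and as a random block 20. Over all tested sequences the calls in either direction were 14 and 34. The 3 named members of ranks 1, 4 and 5 had an adjusted p of 0.0456 in limma with the fixed block. Seabream_2006-01-03-CL422Contig1 had 0.113 and was no longer called. Left out 1 at a time, 4 arrays decided the number of calls. Without low pool 1, without high pool 1 or without high pool 3, limma called no member and no other tested sequence between the exposed groups. The unadjusted p in limma was then under 0.05 in 50, 49 and 47 members, and in 805, 1139 and 850 of all tested sequences. Without low pool 3, 2 members were called, among 5 sequences in all.

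How far the members cleared the rule varied widely. The lowest control exceeded the highest low pool by a median of 0.13 (0.006 to 0.48), and the lowest high pool exceeded the highest control by a median of 0.16 (0.001 to 0.56). The smaller of both gaps, the margin, had a median of 0.097 and ran from 0.0015 to 0.38. It was set by the low side in 30 members and by the high side in 20. On the array with the largest such value, the median SD between spots of one probe was 0.106, and 27 members had a margin below it. The margin was above 0.3 in 6 members, of ranks 1, 4, 6, 8, 11 and 15. Of these, rank 8 passed the filter through the high group alone.

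**Figure D4:**
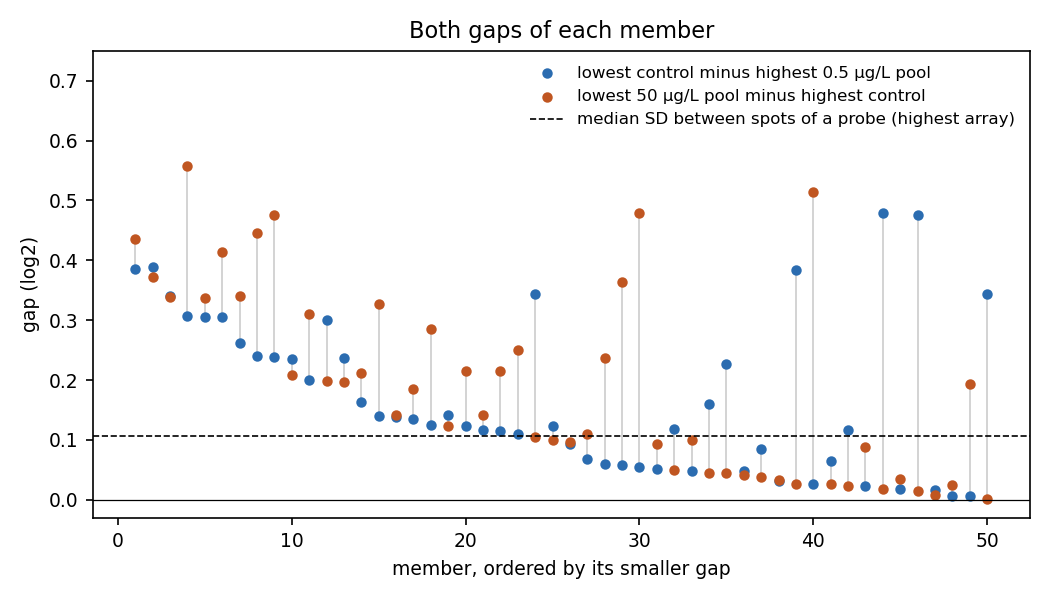
For each member, in order of its smaller gap, the lowest control minus the highest 0.5 µg/L pool (blue) and the lowest 50 µg/L pool minus the highest control (orange), in log2 units, with the median SD between spots of a probe on the array where it was largest (0.106, dashed). In 27 members the smaller gap is under the dashed line, and in 6 it is above 0.3.

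The border of the rule falls in a dense region. The 3 members just inside it had margins of 0.0015, 0.0064 and 0.0072. The 3 sequences just outside missed by 0.0020, 0.0038 and 0.0041, given as margins of -0.0020, -0.0038 and -0.0041. There were 19 members inside by no more than 0.05 and 33 other sequences outside by no more than 0.05.

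Most members were read by more than 1 probe. The array held 122 probes for the 50 members, of which 115 were kept, with 1 kept probe in 15 members, 2 in 5 and 3 in 30. More than 1 kept probe was thus present in 35 members (70.0%), against 44.5% of all tested sequences. In all 35 each kept probe had a higher mean in the high than in the low group, and 99 of their 100 probes had both group means on the rule's side of the controls. The one exception belongs to rank 36, with -0.76 at the low and -0.21 at the high concentration. Over all tested sequences with more than 1 kept probe, 1520 of 6401 probes had both means on that side. The members were chosen on the average of these probes, so the rule largely fixes this agreement. The difference between the largest and smallest probe value of a member, high minus low, had a median of 0.21 (0.02 to 1.00). It was 0.16 over all tested sequences.

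Single probes met the full order less fully than their averages. Of the 100 probes, 38 met it alone, and in 12 of the 35 members no probe did. Over all tested sequences with more than 1 kept probe, 63 of 6401 probes met it alone. Members with 1 kept probe had a median high minus low of 1.31 and a median margin of 0.12, and those with more had 0.87 and 0.07. In 21 members every kept probe was spotted in duplicate. The order was met by the first spots alone in 14 of these, by the second spots alone in 11, by both sets in 6 and by neither in 2. Probes and spots of 1 array read the same RNA, so they bear on the reading of a pool and not on the spread between pools.

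The 7 probes of 6 members that the filter had set aside were not used by the rule, although they read the same RNA. All 7 were higher in the high group than in controls, with a median of 0.90. Of the 2075 such probes of all tested sequences, 58.5% were higher, and the median was 0.13. The low group was above the controls in 3 of the 7, and in 59.5% of the 2075. In 4 of the 7 both groups lay on the rule's side of the controls (57.1%), which held for 14.0% of the 2075. High minus low was positive in 6 of 7, and in 46.4% of the 2075. These probes are dim, and none of them was well above background on all 3 arrays of a group.

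Signal near background limits some of the largest differences. Each kept probe was well above background on all 9 arrays in 30 of 50 members, and in 62.1% of all tested sequences. Each kept probe passed on the 3 high arrays in 49 members, on the 3 control arrays in 42 and on the 3 low arrays in 30. Of all 5191 tested sequences, this held in 3897, 4915 and 3551. Some kept probe passed on the 3 arrays of these groups in 50, 47 and 38 members, and in 4267, 5051 and 4069 of all tested sequences. A probe was kept if it passed on all 3 arrays of any group, the high group included. Ranks 2, 3 and 8 had no kept probe that passed on all 3 control or all 3 low arrays. The filter kept these through the high group alone. In 5 members, of ranks 2, 3, 6, 8 and 18, no kept probe was well above background on any low array, which was so in 52 tested sequences. For these the low level is not well measured. On each array it was set to the probe's signal or, where that was lower, to the array's dimmest signal still well above background. The high group exceeded it 6.52-fold in rank 2, 4.66-fold in rank 3 and 3.15-fold in rank 6. In ranks 8 and 18 it did so 3.04-fold and 2.37-fold. In all but rank 3 this is the measured fold. The low probes failed the background call at these levels, so the folds are not firm lower bounds. No spot was saturated.

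Brightness differs between probes and cannot be read as an amount of RNA, but it shows where on the scale the members were measured. Their mean level over the 9 arrays had a median of 1.04 (-1.25 to 4.25), against 0.65 (-1.78 to 10.4) in all tested sequences. It was below 0 in 13 members, and 6 of these were among the 9 members past 3-fold. Below 0 lay 30.5% of all tested sequences. Clones had a median high minus low of 1.21 and contigs of 0.88, and 6 clones and 3 contigs were past 3-fold.

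The members' deviations from their group means were also compared with one another. They come from the levels that the rule used, so the correlation is a description and no test. Over the 9 arrays, the correlation of these deviations had a median of 0.28 between members (1225 pairs, 73.5% of them positive) and of 0.04 between all tested sequences (52.9% positive). All pairs share the same 9 arrays and pools, including high pool 2, which was the lowest high pool in 41 members. The spots of the members lay in all parts of the array, with between 18.0% and 29.3% in 4 successive bands of its length, against between 23.2% and 26.4% of all spots of tested sequences.

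The scale of the arrays relative to the spike-ins differed between pools. The 75th percentile to which each array was set stood below the mean of 6 spike-in RNAs by a similar amount within the high group, at -4.84, -4.95 and -4.78. It stood at -4.80, -5.54 and -5.63 in controls and at -5.65, -5.34 and -5.38 in the low group. The means were -5.32 ± 0.46, -5.46 ± 0.17 and -4.86 ± 0.09 (SD, n = 3 pools), so that control pool 1 lay with the high group. The high and low groups did not overlap and differed by 0.60, with an exact two-sided permutation p of 0.1 (0.3 after Benjamini-Hochberg adjustment over 3 comparisons), the smallest that 3 against 3 pools allows. Between 7473 and 13557 probes per array were well above background. With the arrays set to the spike-ins instead, the median of all tested sequences, high minus low, moved from -0.11 to 0.49, and 16 of the 50 members met the order. The medians of the members relative to the control mean were then 0.62, -0.28 and -0.32 in control pools 1 to 3, -0.81, -0.41 and -0.48 in the low pools, and 1.04, 0.71 and 1.16 in the high pools. These medians still stand in 3 separate groups, with control pool 1 near high pool 2 and control pools 2 and 3 near low pool 2.

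Each kept probe met the order alone in 20 members, the 15 with 1 kept probe among them, a demand counted apart from what follows. The order was also sought under 7 other ways of processing that combine the probes of a sequence and leave all 50 members in the table. It held in 50 members with outlier spots kept, in 47 with no filter on dim probes, in 45 with quantile normalization, in 40 with median centring, in 38 with the authors' deposited values set to the 75th percentile of each array, in 30 with the median over probes and in 9 with normexp background correction. Leaving out the filter changes the level of only the 6 members with a probe set aside. The median over probes changes only that of the 30 members with 3 kept probes. For the other members the order under these settings was fixed in advance. Under the spike-in scaling the low side held in 22 members and the high side in 29, and under normexp in 17 and 25. All 4 named members lost the order under normexp. In cDN10P0005N01.F.ab1, low pool 1 then stood at 2.66 and control pool 2 at 2.31, with a high minus low difference of 2.86. In Seabream_2006-01-03-CL422Contig1 they stood at 2.19 and 1.91. Seabream_2006-01-03-CL1850Contig1 also lost it with no filter, which brings in the probe set aside.

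**Figure D5:**
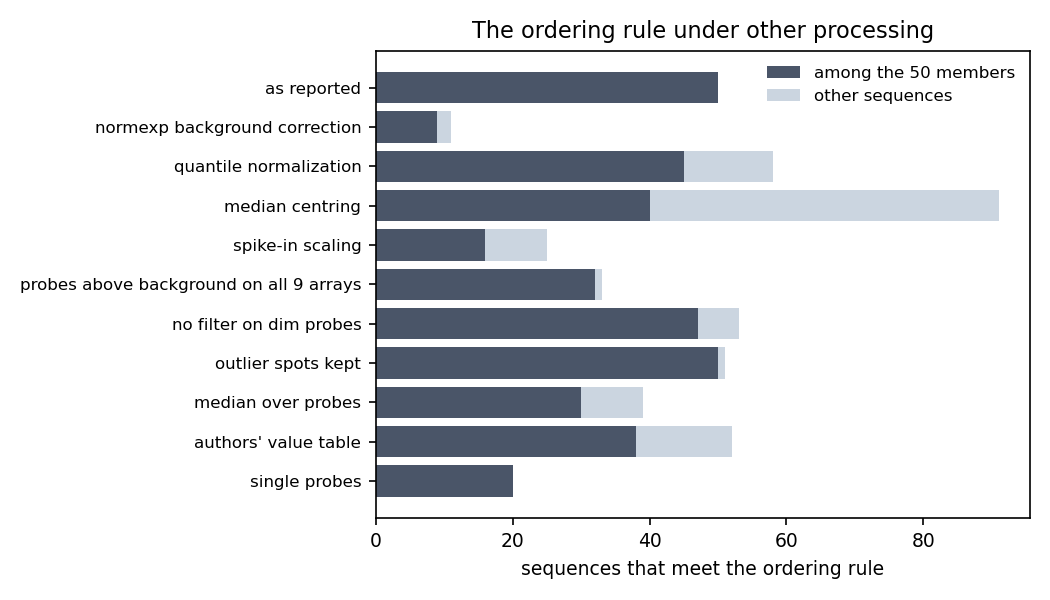
Number of sequences that met the ordering rule as reported and under 10 other ways of processing, divided into those among the 50 members (dark) and others (light). Between 9 and 50 of the members met it, and the total runs from 11 with normexp to 91 with median centring. For single probes the bar counts sequences in which each kept probe met the rule.

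Over these 8 alternatives, each member met the order under at least 2 and the median member under 6. The 2 members that met only 2 did so with outlier spots kept and with no filter. No filter and the median over probes leave the level of many members unchanged, so part of this tally was fixed in advance. The order was met under 5 or more by 38 members and under all 8 by 4, of ranks 11, 22, 24 and 30. Their high minus low differences were 1.47, 1.12, 1.07 and 0.87, and limma called 3 of these 4 between the exposed groups. The members that met all 8 are therefore not those with the largest differences. The named members of ranks 1, 5 and 32 met 7 of 8 and that of rank 4 met 6. The 8 leave out the demand that each kept probe meet the order alone. Ranks 11, 22, 24 and 30 did not meet that demand, and the named members were chosen by it.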

How the data were processed

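The deposited scanner files give linear spot intensity and a processed signal from which background was subtracted, made with Agilent Feature Extraction 10.7.3.1 per the file headers. The authors' deposited value table holds log2 values with no scaling between arrays. They equal, within 5e-09, the log2 of a background-subtracted signal that the scanner software gives apart from the processed signal. Where the deposited values serve as an alternative, they were first set against the 75th percentile of each array. Of 45220 spots, 43803 are not controls. Their log2 processed signals were set against the array's 75th percentile, outlier spots were left out where a probe had others, and spots were averaged. A probe counted as well above background on an array if at least 0.5 of its spots did. Of 28793 probes, 9280 were kept and averaged over 5191 sequences. The members are those that met the order of the 3 groups.

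Comparisons came from limma 3.58.1 (R 4.3.3; prior degrees of freedom 3.97 in eBayes after lmFit), fitted over all 9 arrays and sequences, checked on simulated data. P-values measure the spread between pools, which are not known to be separate exposures, and the number of arrays limits the precision. Deviations of same-numbered pools from their group means correlated between -0.16 and 0.13, and those of differently numbered pools between -0.21 and 0.27. Each group mean comes from few pools, so these values cannot decide whether pool numbers pair the samples. Pool numbers coincide with the slides per the file headers. The reported fit held no block, and fits with the slide as a block are given above.

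Members and lists were chosen with earlier results of these data known. With no gene names (0 matched assembly fSpaAur1.1), no list of marker or pathway genes could be applied. Identifiers are given for at most 4 members in which more than 1 kept probe each met the rule, 2 with the largest difference and 2 with the largest margin among the others. Alternatives were normexp (offset 50), on the median spot signal, quantile, median and spike-in scaling, other filters, probes and outlier rules, the deposited values, slide blocks, 2 groups alone and each array left out. The background call by every or by any spot was added after seeing the data.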

Additional observations from a re-analysis of the deposited data

Results flagged for a closer look

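A probe that the filter had set aside for dim signal, belonging to the member of rank 20, carried a signal outside the measured levels: its mean was 0.835 (log2) higher at 50 µg/L than in controls, and it differed by -0.18 between the low group and controls. It was well above background on 1 of 3 high arrays, on 1 control array and on no low array. The probe was flagged because its 3 high pools all lay above its 3 control pools and it passed on a high array. Its difference from controls at 50 µg/L was not unusual among the 7 probes set aside, whose median was 0.90.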

How the results depend on the processing

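The number of sequences that met the order was 50. It was 11 with normexp, 91 with median centring, 25 with spike-in scaling, 33 with a filter that keeps a probe if it is well above background on every array and 20 where each kept probe had to meet it alone. With 1 array left out it ran from 57 to 96, the latter without high pool 2, and it was over 1.5 times the reported count without control pools 1, 2 and 3 (89, 87 and 77) and without low pool 2 (93). A rule over fewer arrays is met more easily by construction. Of the 50 members, 9 met it with normexp, 16 with spike-in scaling, 32 of the 38 still tested with that filter, 30 with the median over probes and 20 with single probes. Members called by limma between 50 and 0.5 µg/L, 25 as reported, were 0 with normexp and 0 with no filter on dim probes (49 and 47 at an unadjusted p under 0.05), 39 with median centring, 46 with spike-in scaling, 16 with the filter on every array, 13 with the 2 groups alone and 10 with the replicate block, where the slide equals the pool number. With 1 array left out they ran from 0 to 21. Over all tested sequences, in either direction, limma called 56 as reported, 0 with normexp and 0 with no filter, the last out of 15156 sequences. The totals were 141 with median centring, 322 with spike-in scaling and 36 with the filter on every array, the last out of 3771 sequences. They were 22 with the 2 groups alone and 14 with the replicate block. With no filter the level changed only in the 6 members with a probe set aside, while limma adjusted over 15156 sequences. The member of rank 1 kept its high minus low of 2.80. Its unadjusted p in limma was 1.4e-05 against 2.3e-05 as reported, and its adjusted p 0.135 against 0.0180. The cause of the changes in these counts was not tested. Median centring moved the median of all tested sequences, high minus low, from -0.11 to 0.06, and quantile normalization to -0.07. With spike-in scaling the median of all tested sequences, high minus control, moved from -0.11 to 0.35 and so changed sign. With no filter the median low minus control was 0.22. That median is over 15156 sequences, so it is not a shift of the same sequences from the reported -0.02. Members called against the controls were 0 in limma under all 22 alternatives, and no result on the members changed direction. The members were chosen by their direction on every array, so with 1 array left out it could not change. Over all tested sequences, 1 that is no member was called between 50 µg/L and controls with spike-in scaling, and 1 without high pool 1. The median of the members, low minus control, lay between -0.50 and -0.43 with 1 array left out, and high minus control between 0.44 and 0.59. These ranges come from arrays that the rule used and are no test. With spike-in scaling these 2 medians were -0.60 and 0.99 and with normexp -0.32 and 0.39. The opposite order, met by 26 sequences as reported, was met by 3 with normexp, 2 with median centring and 0 with spike-in scaling. Dim signal limits the 20 members in which not each kept probe was well above background on the 3 low arrays. That was so in 1640 of all 5191 tested sequences.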
